A study of Homo sapiens with 12 samples.

Results

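The 10 genes UNC13D, LYST, STXBP2, STX11, STX7, SNAP23, VAMP7, VAMP8, LAMP1 and LAMP2, which act in the docking, priming and fusion of lytic granules, were followed across libraries labelled as YT cells that carry different CD16 receptors. They were chosen by name for these roles, and they are 10 of the 17589 genes in the expression table. All 10 passed the filter on low counts, with 13657 genes tested in all. The labels give the cells as YT, a human natural-killer-like lymphoid line, after infection with a lentiviral vector and without any stimulus that the labels name. Cells of the group CTRL carried eGFP alone, and those of the other 3 groups carried the receptor that names them. Each of the 4 groups has 3 libraries, 12 in all. hnCD16 is a CD16a of high affinity that resists shedding and keeps the natural cytoplasmic tail. FR1 joins its outer and transmembrane parts, without that tail, to the signalling domains of 2B4, DAP10 and CD3ζ. FR2 joins the same parts to those of DAP10 and CD3ζ. The inserts were driven by the constitutive hEF1A promoter, and transduced cells were sorted for eGFP and expanded as a population. Nothing in the labels says that the 3 libraries of a group came from separate cultures, so p-values measure the spread between these libraries, which may be technical.

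Lytic granules are lysosome-related organelles of cytotoxic lymphocytes that store perforin and granzymes. After contact with a target cell they travel to the synapse, are tethered and primed there by the MUNC13 protein of UNC13D, and fuse when an R-SNARE on the granule, such as VAMP7 or VAMP8, zips up with Q-SNAREs of the plasma membrane, such as syntaxin 11 and SNAP23. The MUNC18 protein of STXBP2 binds syntaxin 11, and inherited loss of UNC13D, STX11 or STXBP2 causes familial hemophagocytic lymphohistiocytosis. Inherited loss of LYST causes Chediak-Higashi syndrome, in which granules are enlarged. LAMP1 and LAMP2 line the granule membrane, and LAMP1 (CD107a) at the cell surface is the usual readout of degranulation.

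Of the 10 genes, 8 have 1 or more entries in the RefSeq promoter table of GRCh38.p14, with 14 windows in all. The 250 bases before a RefSeq transcript start of VAMP8, STX11 and LYST are printed because these genes differed most between groups and have such an entry. All are written 5′ to 3′ on the strand of the gene, with CG dinucleotides in capitals. The VAMP8 window is chr2:85577336-85577585 on the plus strand, the STX11 window chr6:144150267-144150516 on the plus strand, and the LYST window chr1:235866907-235867156 on the minus strand.
VAMP8: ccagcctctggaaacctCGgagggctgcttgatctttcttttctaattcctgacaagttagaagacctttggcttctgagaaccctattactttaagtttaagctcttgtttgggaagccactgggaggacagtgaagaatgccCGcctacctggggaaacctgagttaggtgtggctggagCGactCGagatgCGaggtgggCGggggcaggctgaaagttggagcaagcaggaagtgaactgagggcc
STX11: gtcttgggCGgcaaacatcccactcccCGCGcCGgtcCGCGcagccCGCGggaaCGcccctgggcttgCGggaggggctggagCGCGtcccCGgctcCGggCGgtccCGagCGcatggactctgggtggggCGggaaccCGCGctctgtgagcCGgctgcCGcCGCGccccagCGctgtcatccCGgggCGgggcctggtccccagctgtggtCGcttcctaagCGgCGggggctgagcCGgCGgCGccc
LYST: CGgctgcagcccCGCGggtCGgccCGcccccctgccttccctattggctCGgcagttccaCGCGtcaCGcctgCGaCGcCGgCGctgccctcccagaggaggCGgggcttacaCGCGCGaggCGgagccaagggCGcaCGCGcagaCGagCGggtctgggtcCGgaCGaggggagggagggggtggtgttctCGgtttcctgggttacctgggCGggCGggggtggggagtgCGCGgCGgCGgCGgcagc
The VAMP8 and LYST windows lie inside the genes as GENCODE 44 gives them, so that they precede a start within the gene. The STX11 window runs past the GENCODE start of its gene at chr6:144150487, so that it too precedes a start within the gene. No value here shows which start was used. The VAMP8 window held 6 CG dinucleotides, while those of STX11 and LYST held 33 each. The median over 35116 windows of this length was 11, and 91.9% of the windows held fewer than 33. The other LYST windows in the table, at chr1:235883714-235883963 and chr1:235883709-235883958, held 2 CG each. GGGCGG, searched on both strands and itself holding a CG, was found 1 time for VAMP8, 4 times for STX11 and 3 times for LYST, and 42.6% of all windows held it. TATAAA, searched on both strands, was found in none of the 3 windows, and 10.7% of all windows held it.

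The libraries held 17714566 to 18729019 counts, so that 3 counts, taken as the floor, correspond to about 0.160 to 0.169 CPM (counts scaled to the normalised library size). FCGR3A, the gene of CD16a, had 0 counts in every CTRL library and 453 to 1132 in every library of the other groups, as the labels say. Before the results it has to be said that the CTRL and hnCD16 libraries stood apart from the FR1 and FR2 libraries. Pearson's r was taken across genes, which are not independent replicates, on log2(TPM + 1), where TPM is transcript abundance scaled to gene length and library. It averaged 0.998 within groups, 0.995 between CTRL and hnCD16, 0.995 between FR1 and FR2, and 0.867 across these 2 pairs of groups. All 10 of 10 HLA genes examined differed at least 4-fold between the pairs without overlap. The share of all genes that meets this rule was not computed, so the count describes these HLA genes only. The summed level of 12 NK cell markers was 89.8 to 109 TPM in CTRL and hnCD16 and 7417 to 8097 TPM in FR1 and FR2. In CTRL and hnCD16, 5 of 12 NK markers reached 1 CPM in every library, and NCAM1, PRF1, GZMB, GNLY, NCR1, TBX21 and KLRF1 did not. The list did not move as one: the FR1 and FR2 sum was mostly GZMB and NKG7, KLRF1 stayed near 0 in all groups, and GZMA went the other way, from 21.1 and 23.0 CPM in CTRL and hnCD16 to 4.78 and 6.49 CPM in FR1 and FR2. NCR3 stood at 5.399 and 5.58 CPM in CTRL and hnCD16 and at 0.825 and 0.131 CPM in FR1 and FR2. T cell markers, 8 of 10 of which are in the table, summed to 1552 to 1778 TPM in CTRL and hnCD16 and to 47.0 to 56.2 TPM in FR1 and FR2. The CTRL and hnCD16 sums were mostly CD3D, at 1321 and 1409 TPM, and CD8A and CD8B stood near 1 CPM there. CD3E stood at 134 and 104 CPM in CTRL and hnCD16 and still at 35.2 and 39.6 CPM in FR1 and FR2. For the CTRL and hnCD16 libraries these values go against the label of a natural-killer-like line, and the identity of the line is in doubt. In every comparison across the pairs, a difference between receptors cannot be told apart from a difference between cell lines, and a change in the share of a cell type cannot be told apart from a change of RNA per cell. The comparisons of hnCD16 with CTRL and of FR1 with FR2 do not cross the split.

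Differences were tested with edgeR's quasi-likelihood test over all 13657 genes, and a differentially expressed gene (DEG) was called where the log2 fold change was 1 or more in size and p, adjusted by Benjamini-Hochberg, did not exceed 0.05. In FR1 compared with hnCD16, 5 of the 10 genes were DEGs, where 38.3% of all tested genes were DEGs. STX11, LYST and VAMP7 rose (18.7% of all genes did) and VAMP8 and UNC13D fell (19.6% of all genes did). In FR2 compared with hnCD16, 6 of the 10 were DEGs, with LAMP1 as the additional gene that rose, where 39.5% of all genes were DEGs, 19.6% up and 19.8% down. The counts were 5 of 10 in FR1 compared with CTRL (38% of all genes, 18.3% up and 19.8% down) and 5 of 10 in FR2 compared with CTRL (38.2% of all genes, 18.7% up and 19.6% down), and these were the 5 genes named for FR1 compared with hnCD16. These counts were near the background, 1 or 2 genes of 10 above it, and are not a result about the 10 genes as a list. By adjusted p alone, 9 of 10 passed in FR1 compared with hnCD16, 6 up and 3 down, where 79.1% of all genes passed, 39.1% up and 40% down. In FR2 compared with hnCD16, 5 passed up and 3 down, where 80.1% of all genes passed, 38.7% up and 41.4% down. Compared with CTRL, 7 passed up and 2 down in FR1, where 79.9% of all genes passed, 39.1% up and 40.8% down, and again 7 up and 2 down in FR2, where 80.2% passed, 38.5% up and 41.7% down. The 4 comparisons share their hnCD16, CTRL, FR1 or FR2 libraries. The sizes were spread widely: the median absolute log2 fold change in FR1 compared with hnCD16 was 0.98 over the 10 genes and 0.70 over all genes, and the median signed value was 0.44 against -0.01.

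**Figure D1:**
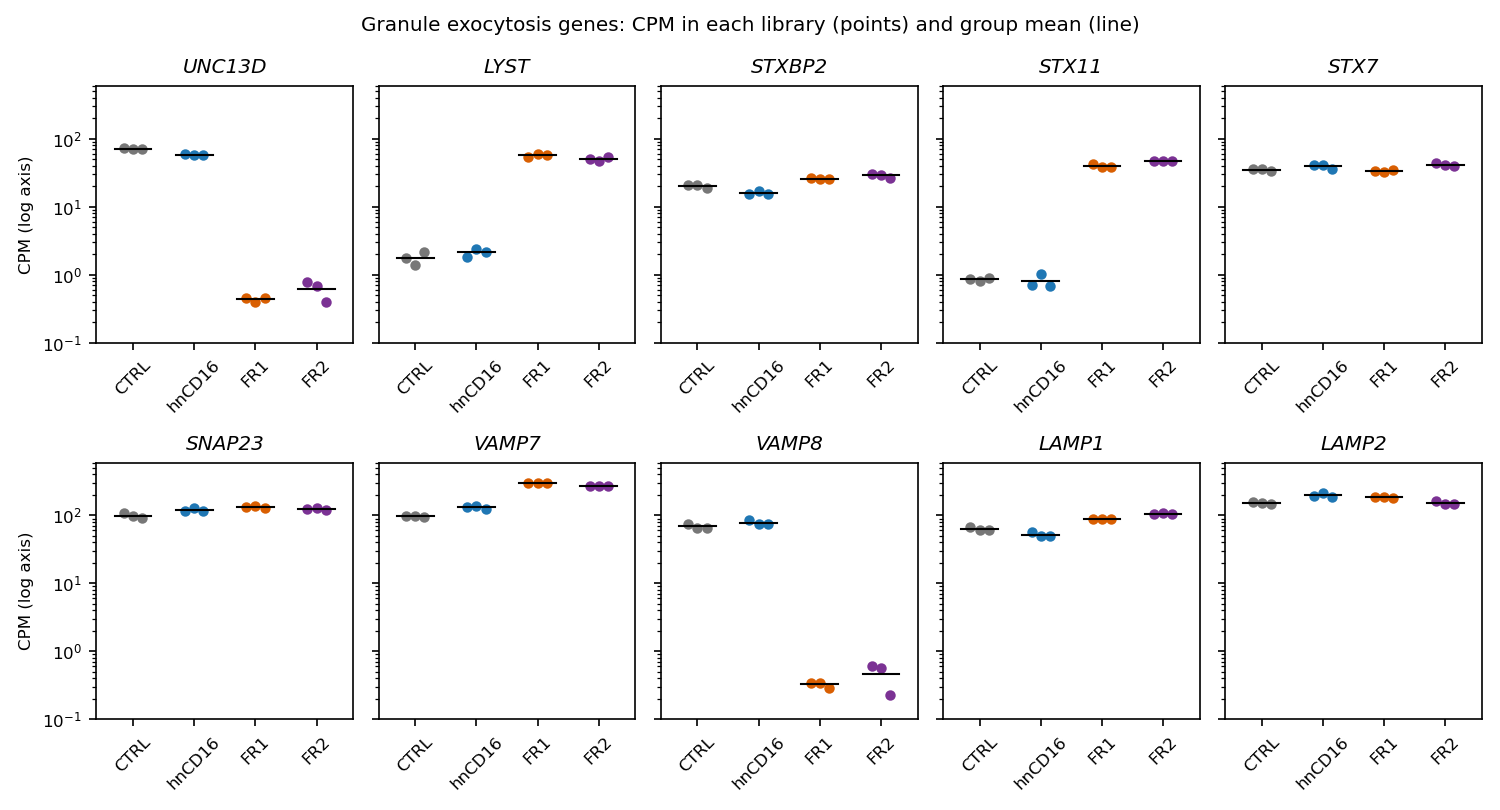
CPM of the 10 genes in each of 12 libraries, on a log axis, with points for libraries and a line for the group mean. UNC13D and VAMP8 lie below 1 CPM in FR1 and FR2, STX11 lies near 1 CPM in CTRL and hnCD16 and LYST near 2 CPM, and the other 6 genes stay above 10 CPM in every library.

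UNC13D, on chromosome 17 (chr17:75827225-75844785, minus strand, GRCh38), encodes the MUNC13 protein that primes granules for fusion. The CTRL libraries held 1416, 1431 and 1434 counts of UNC13D and the hnCD16 libraries 1116, 1082 and 1082. The FR1 libraries held 8, 7 and 8 counts and the FR2 libraries 14, 12 and 7. Every CTRL and hnCD16 library was far above every FR1 and FR2 library, with no overlap. The mean level of UNC13D was 58.9 ± 1.66 CPM (SD, n = 3) for hnCD16, 0.441 ± 0.0320 CPM for FR1 and 0.621 ± 0.198 CPM for FR2. Its log2 fold change was -7.04 ± 0.11 (SE, edgeR adjusted p = 3.29e-19) in FR1 and -6.55 ± 0.11 (adjusted p = 3.59e-19) in FR2, each compared with hnCD16. The level fell by a smaller step from CTRL to hnCD16, by 0.29 on the log2 scale (edgeR adjusted p = 0.000420), while FR1 and FR2 did not differ beyond their spread (log2 difference -0.49 ± 0.28, adjusted p = 0.339). The annotation used lists 1 transcript for this gene, and forms outside it were not measured.

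Little message of the whole MUNC13 family was left in FR1 and FR2. Over UNC13A, UNC13B, UNC13C, UNC13D and BAIAP3, a grouping chosen after the values were seen, the summed level was 36.1 ± 1.48 TPM (SD, n = 3) in CTRL and 26.8 ± 0.325 TPM in hnCD16. The sum was 0.397 ± 0.0585 TPM in FR1 and 0.510 ± 0.0557 TPM in FR2. UNC13D made up 96.7% of the sum in CTRL and 96.2% in hnCD16. UNC13B, a relative that primes vesicles in other cells, stood at 0 to 0.0133 TPM on average in each group.

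LYST, on chromosome 1 (chr1:235661041-235883724, minus strand), encodes a large BEACH domain protein that limits the size of lysosome-related organelles. The CTRL libraries held 35, 28 and 43 counts of LYST and the hnCD16 libraries 34, 45 and 41. The FR1 libraries held 938, 1032 and 1021 counts and the FR2 libraries 905, 842 and 941. All 6 FR libraries were above all 6 others. The log2 fold change of LYST compared with hnCD16 was 4.73 ± 0.10 in FR1 (SE, edgeR adjusted p = 2.17e-17) and 4.55 ± 0.10 in FR2 (adjusted p = 4.14e-17). Between hnCD16 and CTRL the difference of 0.28 ± 0.18 did not pass the test (adjusted p = 0.248), and FR1 was above FR2 by 0.18 ± 0.07 (adjusted p = 0.0454). In FR1, transcript NM_000081 held 42.2% ± 5.94 and NM_001301365 36.6% ± 9.03 of the TPM of LYST (SD, n = 3). These shares overlapped between FR1 libraries, at 37.2% to 48.8% and 28.9% to 46.5%. In FR2 the means were 34.4% ± 9.68 and 52.2% ± 3.67. In CTRL and hnCD16 NM_001301365 was estimated at 0 in every library. With 28 to 45 counts of LYST there, and a lowest share of 0 also for NM_000081, this says little about its absence.

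Of the fusion proteins at the plasma membrane, STX11 was a DEG in 4 comparisons, and its partner STXBP2 and SNAP23 in none. STX11, on chromosome 6 (chr6:144150487-144191939, plus strand), encodes syntaxin 11, the Q-SNARE that granules meet at the synapse. STX11 was counted 17, 16 and 18 times in the CTRL libraries and 13, 19 and 13 times in hnCD16. Its counts were 745, 667 and 686 in FR1 and 833, 846 and 838 in FR2, far above CTRL and hnCD16 without overlap. Its log2 fold change compared with hnCD16 was 5.63 ± 0.11 in FR1 (SE, edgeR adjusted p = 5.10e-18) and 5.87 ± 0.11 in FR2 (adjusted p = 2.10e-18). FR1 was below FR2 by 0.24 on the log2 scale (adjusted p = 0.00495), and CTRL and hnCD16 did not differ beyond their spread (adjusted p = 0.859). Of the STX11 transcripts, XM_011536214 led with 53.6% ± 2.94 of the TPM in FR1 and 60.7% ± 1.13 in FR2 (SD, n = 3). NM_003764 held 9.56% ± 3.90 and 10.4% ± 1.96.

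STXBP2, on chromosome 19 (chr19:7636772-7647873, plus strand), encodes the MUNC18 protein that holds syntaxin 11 ready for fusion. STXBP2 had 404, 418 and 380 counts in CTRL, 283, 313 and 293 in hnCD16, 467, 440 and 453 in FR1, and 551, 525 and 463 in FR2. The hnCD16 libraries were lowest, with no overlap with the other groups, and FR1 overlapped with FR2. In none of the comparisons did STXBP2 reach the fold threshold. Its log2 difference to hnCD16 was 0.71 ± 0.07 in FR1 (SE, edgeR adjusted p = 7.73e-08) and 0.86 ± 0.07 in FR2 (adjusted p = 4.45e-09), and it was lower by 0.34 ± 0.07 in hnCD16 than in CTRL (log2 fold change -0.34, adjusted p = 0.00169). Per length, STX11 stood at 0.353 TPM in hnCD16 beside 15.4 TPM of STXBP2, and at 15.6 TPM in FR1 beside 24.0 TPM of STXBP2.

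SNAP23, on chromosome 15 (chr15:42491233-42545356, plus strand), is the broadly expressed Q-SNARE that joins syntaxins at the plasma membrane. SNAP23 had 2093, 1939 and 1860 counts in CTRL, 2099, 2371 and 2166 in hnCD16, 2314, 2380 and 2280 in FR1, and 2244, 2236 and 2089 in FR2. The ranges of hnCD16, FR1 and FR2 lay close together. Its mean ran from 98.8 ± 7.36 CPM in CTRL to 134 ± 3.67 CPM in FR1 (SD, n = 3), and of neighbours in that order hnCD16 and CTRL differed (log2 difference 0.27 ± 0.06, edgeR adjusted p = 0.00177). As neighbours, FR1 and FR2 and then FR2 and hnCD16 did not pass the test (edgeR adjusted p = 0.160 and 0.396). Set directly against hnCD16, FR1 was higher by 0.17 ± 0.06 on the log2 scale (edgeR adjusted p = 0.0156), without overlap in CPM. SNAP23 made up 59.9% to 68.4% of the summed TPM of SNAP23, SNAP25, SNAP29 and SNAP47 in the group means.

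STX7, on chromosome 6 (chr6:132445867-132513198, minus strand), encodes a Q-SNARE of late endosomes and lysosomes. STX7 had 701, 724 and 680 counts in CTRL, 751, 774 and 674 in hnCD16, 590, 566 and 603 in FR1, and 785, 728 and 703 in FR2. FR1 had the fewest raw counts, but scaled to library size it overlapped with CTRL, at 32.7 to 34.4 CPM against 33.8 to 36.2 CPM. The log2 difference of FR1 to CTRL was -0.06 ± 0.06 and did not pass the test (edgeR adjusted p = 0.374). FR1 was below FR2 by 0.31 ± 0.06 on the log2 scale (log2 difference -0.31, edgeR adjusted p = 0.00121) and below hnCD16 by 0.23 ± 0.06 (log2 difference -0.23, adjusted p = 0.00382). The log2 difference of FR2 was 0.24 ± 0.06 to CTRL (adjusted p = 0.00185) and 0.08 ± 0.06 to hnCD16 (adjusted p = 0.241), and both changed sign on the TPM scale, to -0.021 and -0.044 in limma on log2(TPM + 0.1). The TPM of STX7 came for 86.2% in CTRL and 85.3% in FR1 from NM_001326580, which held 211 to 233 counts in CTRL and 166 to 192 in FR1. On expected counts the leading transcript was another in CTRL, FR1 and FR2. NM_001326580 then held 32.1% in CTRL and 30.6% in FR1, and NM_003569 held 52.6% ± 7.42 and 40.5% ± 15.9 (SD, n = 3). In hnCD16 NM_001326580 held 32.5% ± 1.40 and NM_003569 31.7% ± 21.2, so that neither led clearly.

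The R-SNAREs of the granule moved in opposite directions. VAMP8, on chromosome 2 (chr2:85561562-85582031, plus strand), encodes an R-SNARE of endosomes and secretory granules. The CTRL libraries held 1479, 1298 and 1329 counts of VAMP8 and the hnCD16 libraries 1565, 1403 and 1390. The FR1 libraries held 6, 6 and 5 counts and the FR2 libraries 11, 10 and 4. All FR1 and FR2 libraries were near the floor of detection, and none came near CTRL or hnCD16. The log2 fold change of VAMP8 compared with hnCD16 was -7.88 ± 0.16 in FR1 (SE, edgeR adjusted p = 6.10e-18) and -7.35 ± 0.15 in FR2 (adjusted p = 6.06e-18), the largest of the 10 genes in either direction. FR1 and FR2 differed by -0.52 ± 0.45, within their spread (adjusted p = 0.412), and hnCD16 was above CTRL by 0.18 ± 0.07 (adjusted p = 0.0454) with overlapping libraries. This last value was 0.034 in limma on log2(TPM + 1) and 0.11 to 0.26 with 1 library left out, and its adjusted p rose above 0.05 without CTRL replicate 2 or 3 or hnCD16 replicate 1 or 2.

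VAMP7 encodes an R-SNARE of lysosomes and lies in the pseudoautosomal region, at chrX:155881345-155943769 and chrY:57067865-57130289 on the plus strand, and the counts of both copies were added by the authors' counting. VAMP7 had 1932, 1976 and 1920 counts in CTRL and 2417, 2552 and 2360 in hnCD16. It had 5244, 5209 and 5214 counts in FR1 and 4915, 4712 and 4681 in FR2. No groups overlapped, and the order was FR1, FR2, hnCD16 and CTRL, each neighbour differing from the next. The log2 fold change compared with hnCD16 was 1.19 ± 0.05 in FR1 (SE, edgeR adjusted p = 6.42e-14) and 1.04 ± 0.05 in FR2 (adjusted p = 4.57e-13). The FR2 value fell below the fold threshold of 1 in limma on log2(TPM + 1), at 0.97. hnCD16 was above CTRL by 0.43 ± 0.05 (adjusted p = 1.42e-05), the widest difference among the 10 genes between these 2 groups.

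Compared per length over 9 R-SNAREs (VAMP1, VAMP2, VAMP3, VAMP4, VAMP5, VAMP7, VAMP8, YKT6 and SEC22B, a grouping chosen after the values were seen), the leading gene changed. VAMP8 made up 37.0% of the summed TPM in CTRL and 36.9% in hnCD16, and 0.189% in FR1 and 0.292% in FR2. VAMP7 made up 13.3% in CTRL and 15.7% in hnCD16, but 47.4% in FR1 and 43.3% in FR2. VAMP8 was thus the most abundant R-SNARE message of CTRL and hnCD16, and VAMP7 that of FR1 and FR2. The summed level was 566 ± 11.2 TPM in CTRL, 580 ± 4.60 TPM in hnCD16, 419 ± 3.59 TPM in FR1 and 415 ± 4.84 TPM in FR2 (SD, n = 3).

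**Figure D2:**
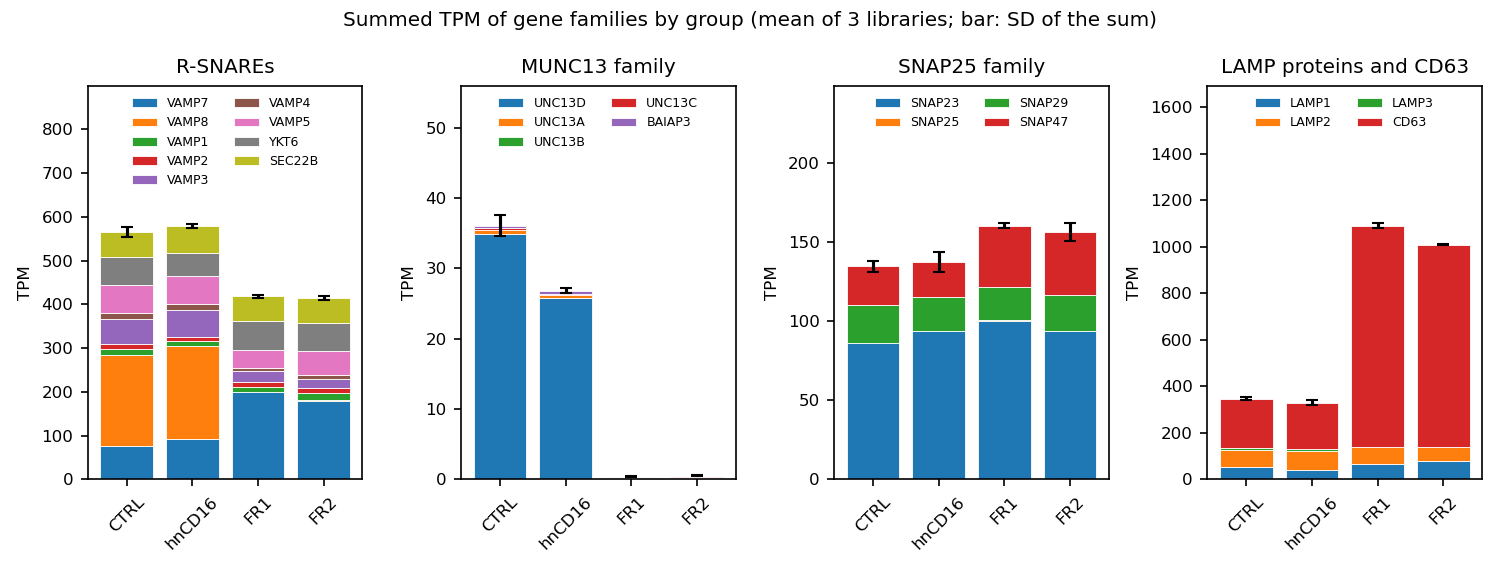
Summed TPM of 4 gene families in each group, as stacked means of 3 libraries with bars for the SD of the sum. The VAMP8 share of the R-SNAREs drops from 36.9% in hnCD16 to 0.189% in FR1, the MUNC13 family falls from 26.8 to 0.397 TPM, and the LAMP panel grows through CD63.

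LAMP1 and LAMP2 encode glycoproteins of the lysosome and granule membrane. LAMP1, on chromosome 13 (chr13:113297239-113323672, plus strand), had 1309, 1221 and 1212 counts in CTRL, 1049, 930 and 924 in hnCD16, 1555, 1527 and 1560 in FR1, and 1871, 1891 and 1847 in FR2. No groups overlapped, and FR2 was highest and hnCD16 lowest. LAMP1 rose in FR2 compared with hnCD16, with a log2 fold change of 1.02 ± 0.06 (SE, edgeR adjusted p = 2.21e-11), the value that made it a DEG in this comparison. This call rested on values at the threshold: the log2 fold change was 0.93 in limma on log2(TPM + 1), 0.995 without hnCD16 replicate 2 and 0.978 without hnCD16 replicate 3. In FR1 compared with hnCD16 the difference was 0.77 ± 0.06 (adjusted p = 1.31e-09), and FR1 was below FR2 by 0.25 on the log2 scale (adjusted p = 0.00276).

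LAMP2, on chromosome X (chrX:120426148-120469365, minus strand), had 3128, 2994 and 2987 counts in CTRL, 3516, 3920 and 3516 in hnCD16, 3261, 3255 and 3147 in FR1, and 2934, 2605 and 2570 in FR2. The hnCD16 libraries had the most raw counts, and on the CPM scale they overlapped with FR1, at 187 to 212 CPM against 179.8 to 189 CPM. Its log2 difference to hnCD16 was -0.08 ± 0.06 in FR1 (SE, edgeR adjusted p = 0.197) and -0.36 ± 0.06 in FR2 (adjusted p = 1.84e-05), and FR1 was above FR2 by 0.28 ± 0.06 (adjusted p = 0.00127). In FR2 compared with CTRL the difference was 0.0012 ± 0.06 (adjusted p = 0.986), whose sign changed with the scaling. LAMP2 did not reach the fold threshold in any comparison.

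The transcript table splits LAMP2 into forms that differ in their membrane anchor. NM_013995, the B form, held 93.3% ± 0.557 of the TPM of LAMP2 in CTRL and 92.7% ± 0.908 in hnCD16, and 96.2% ± 0.296 in FR1 and 95.3% ± 0.669 in FR2 (SD, n = 3). NM_002294, the A form, which serves as the receptor of chaperone-mediated autophagy, held 6.73% ± 0.557 in CTRL and 7.28% ± 0.971 in hnCD16. It held 3.84% ± 0.296 in FR1 and 4.71% ± 0.669 in FR2. The A form was lower in all 6 FR libraries than in all 6 others. On expected counts in place of TPM the A form held 10.4%, 11.2%, 6.04% and 7.38%. These shares are descriptions with no test, since transcript values are estimates from shared reads. SNAP23 was led by NM_003825, with 90.9% to 93.4% of its TPM in the group means, and NM_130798 held 4.81% to 6.55% with libraries overlapping across all groups. STXBP2 was led by NM_006949 and LAMP1 was divided between NM_005561 and XM_011537494.

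**Figure D3:**
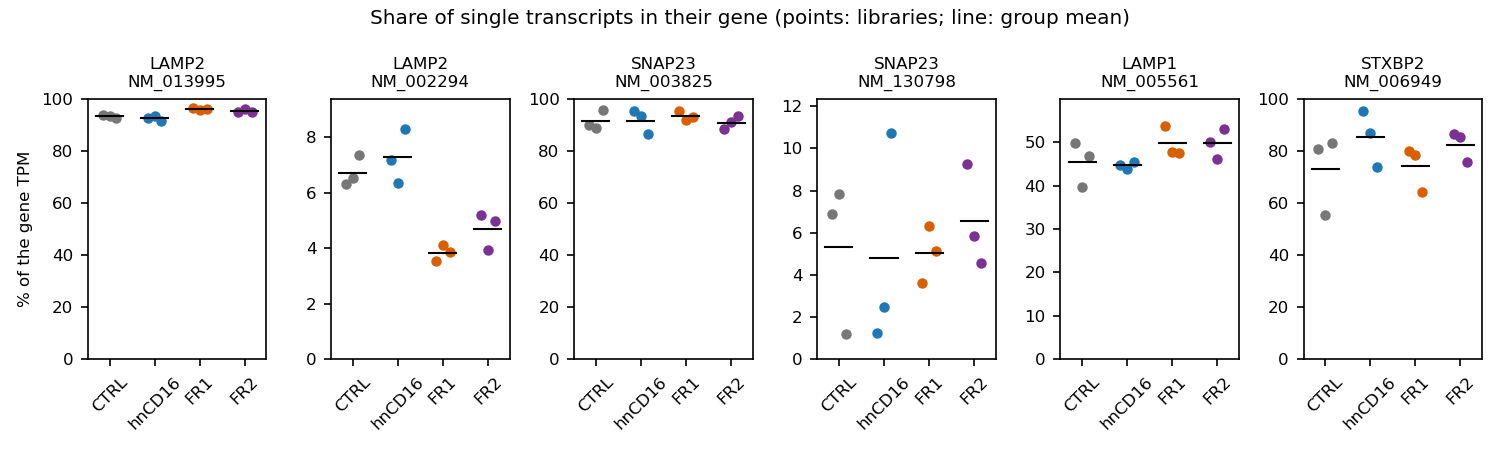
Share of single transcripts in the TPM of their gene, as percent per library (points) and group mean (line), for LAMP2, SNAP23, LAMP1 and STXBP2. The A form of LAMP2, NM_002294, lies between 3.53% and 5.20% in FR1 and FR2 and between 6.31% and 8.30% in CTRL and hnCD16, while the other panels overlap more between groups or differ little.

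Within the pairs of groups, 0 of the 10 genes were DEGs. In hnCD16 compared with CTRL, edgeR called 0 of 10 where 0.527% of all genes were DEGs, 0.212% up and 0.315% down, and DESeq2 and limma also called 0. At an unadjusted p under 0.05 stood 8 of 10, a looser measure for which the share of all genes was not computed. In FR1 compared with FR2, edgeR called 0 of 10 where 1.93% of all genes were DEGs, 0.439% up and 1.49% down, and DESeq2 and limma also called 0. Here 7 of 10 stood at an unadjusted p under 0.05, again without a share of all genes to set beside it. By adjusted p alone, 8 of 10 passed in hnCD16 compared with CTRL, 5 up and 3 down (43% of all genes, 21.6% up and 21.4% down), and 6 of 10 in FR1 compared with FR2, 3 up and 3 down (36.2% of all genes, 17.7% up and 18.5% down). The widest log2 difference of a gene was 0.43, in VAMP7, for the first comparison and 0.52, in VAMP8, for the second, where VAMP8 had 4 to 11 counts. VAMP7, LAMP2, SNAP23, VAMP8 and STX7 were higher in hnCD16 than in CTRL, and UNC13D, STXBP2 and LAMP1 were lower, with overlapping libraries for VAMP8 and STX7. LAMP2, LYST and VAMP7 were higher in FR1 than in FR2, and STX7, LAMP1 and STX11 were lower.

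**Figure D4:**
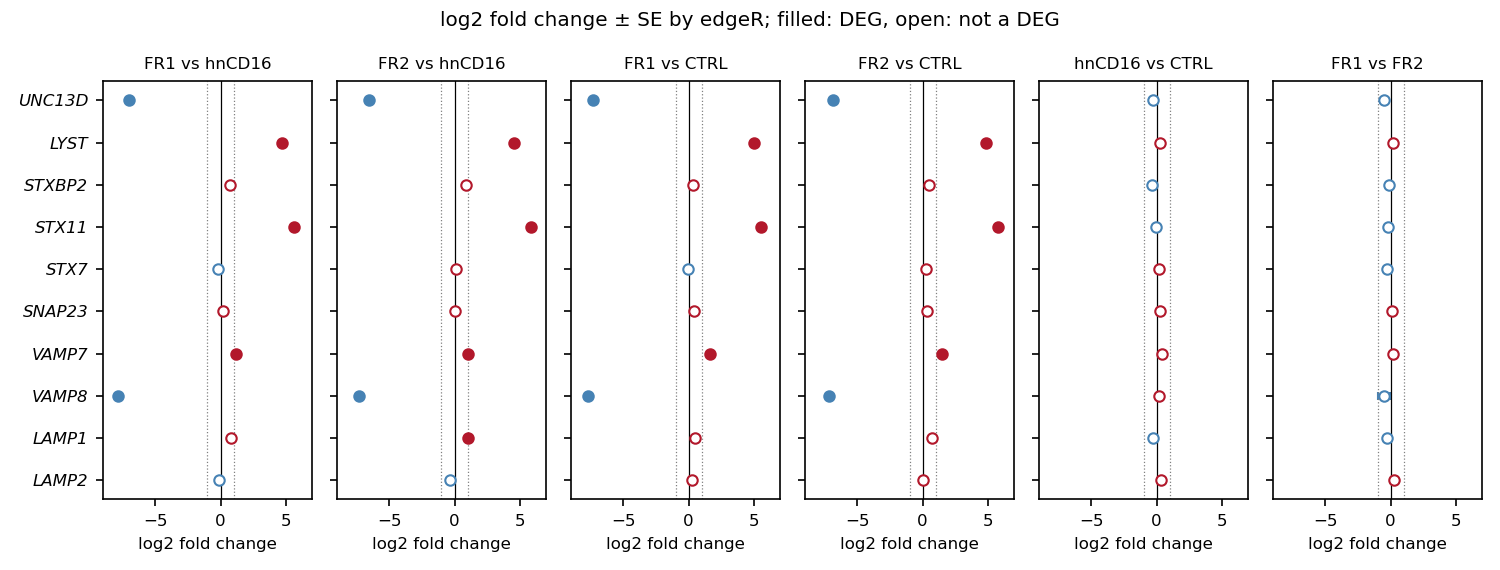
log2 fold changes by edgeR of the 10 genes in 6 comparisons, with bars for SE, filled points for DEGs and dotted lines at a log2 fold change of 1 and -1. UNC13D and VAMP8 lie between -7.88 and -6.55 and STX11 and LYST between 4.55 and 5.87 in the 4 panels that set FR1 and FR2 against either other group, and no point is filled in the other panels.

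Across the 12 libraries the 10 genes fell in with the split or stood outside it. Pearson's r of log2(CPM + 1) was 0.998 between UNC13D and VAMP8 and 0.996 between STX11 and LYST, and it was -0.997 between STX11 and UNC13D. STX7 had r of -0.03 with UNC13D and 0.07 with STX11, and LAMP2 had r of 0.08 and -0.14. These values describe 12 libraries that fall into 2 clusters and carry no test. The genes most like VAMP8 were CDH2, CD3D and TSPAN7 (r of 0.9996, 0.9996 and 0.9995), and those most like UNC13D were GRK3, NKX2-5 and PPM1H (r of 0.9997, 0.9997 and 0.9996). Those most like STX11 were HLA-DPA1, IGFBP7 and HLA-DRB3, with r of 0.9996 each, and HLA genes share reads with near-identical copies. A share of 7.35% to 7.57% of all tested genes had an r above 0.99 with these 3 genes, so that such likeness was common.

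The wider machinery was followed through 10 lists of 141 genes, of which 140 are in the table and 128 were tested. In FR1 compared with hnCD16, 17 of 128 rose and 20 fell as DEGs, 28.9% in all against 38.3% of all genes (18.7% up and 19.6% down), and the median log2 fold change was 0.14. The numbers were 42 of 128 in FR2 compared with hnCD16, 37 in FR1 compared with CTRL and 34 in FR2 compared with CTRL (32.8%, 28.9% and 26.6%), where 39.5%, 38% and 38.2% of all genes were DEGs. In hnCD16 compared with CTRL and in FR1 compared with FR2, edgeR called 0 of 128, where 0.527% and 1.93% of all genes were DEGs, and DESeq2 and limma also called 0. At an unadjusted p under 0.05 stood 74 and 67 of 128, and the share of all genes at this measure was not computed. By adjusted p alone, 50.8% and 42.2% of the 128 passed, where 43% and 36.2% of all genes did. The counts of each list below stand beside 18.7% of all genes up and 19.6% down in FR1 compared with hnCD16 and, with 6 to 22 genes a list, are descriptions and no result about the list.

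Of the tethering genes, 2 of 6 tested rose and 1 fell in FR1 compared with hnCD16. SYTL2, a synaptotagmin-like protein that binds RAB27A on granules, had 2 to 7 counts in CTRL and hnCD16 and 721 to 904 in FR1 and FR2, with a log2 fold change of 7.36 ± 0.14 (SE, edgeR adjusted p = 4.75e-18) in FR1 compared with hnCD16. SYTL3, a related tether, rose by 4.02 ± 0.12 (adjusted p = 2.08e-15). SYTL1, another relative, was at 0 or 1 count in each FR library and was at least 68.3-fold lower in FR1 than in hnCD16, against the floor of 3 counts per library. RAB27A itself, named here after its values were seen because these proteins bind it, was no DEG, at 0.67 ± 0.04 in FR1 compared with hnCD16 (adjusted p = 1.75e-10) and levels of 65.1 to 108 TPM in the group means.

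Of 22 other syntaxins and Q-SNAREs tested, 0 rose and 1 fell in FR1 compared with hnCD16, with 17 of 22 passing the adjusted p alone in either direction (79.1% of all genes), and in FR2 compared with hnCD16 0 rose and 3 fell. The gene in FR1 was STX3, a plasma membrane syntaxin, at -1.54 ± 0.08 (SE, edgeR adjusted p = 7.63e-12). Of 7 other R-SNAREs, 0 rose and 1 fell, VAMP3 of recycling endosomes, at -1.34 ± 0.07 (adjusted p = 2.17e-12), and 6 of 7 passed the adjusted p alone. Of 19 SM proteins, MUNC13 relatives and recycling factors, 1 rose and 4 fell. VPS45, an SM protein of endosomes, rose by 1.03 ± 0.05 (adjusted p = 6.19e-13) in FR1 and missed the fold threshold in FR2, at 0.82. UNC13A fell by 2.65 ± 0.29 on the log2 scale (log2 fold change -2.65, adjusted p = 1.41e-07), and STXBP6, which binds SNAREs of the plasma membrane, by 2.18 ± 0.10 (log2 fold change -2.18, adjusted p = 9.41e-13).

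Of the calcium sensing and entry genes, 3 of 11 were up and 3 down in FR1 compared with hnCD16, and 2 up and 2 down in FR2 compared with CTRL. SYT11, a synaptotagmin relative that does not bind calcium, rose by 2.9996 ± 0.06 (SE, edgeR adjusted p = 3.46e-18), and ORAI3, a calcium channel subunit, by 1.83 ± 0.28 (adjusted p = 9.53e-06). SYT1 was at least 21.2-fold lower in FR1 than in hnCD16, and SYT5 fell by 1.58 ± 0.18 on the log2 scale (log2 fold change -1.58, adjusted p = 3.56e-07). Among 8 BEACH proteins related to LYST, 2 rose and 1 fell. WDR81, which acts on endosomes, rose by 3.34 ± 0.08 (adjusted p = 9.66e-17) and NBEA by 1.39 ± 0.10 (adjusted p = 7.81e-10).

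Genes that build and move lysosome-related organelles gave 2 up and 3 down of 21, and 4 up and 2 down of 16, in FR1 compared with hnCD16. Of the AP-3 adaptor that sorts cargo to these organelles, AP3M2 rose by 1.21 ± 0.06 (SE, edgeR adjusted p = 6.46e-12) and AP3D1 by 1.104 ± 0.05 (adjusted p = 1.30e-12). RAB32 had 0 counts in every FR1 library and was at least 87.7-fold lower than in hnCD16, and its relative RAB38 fell by 2.23 ± 0.24 on the log2 scale (log2 fold change -2.23, adjusted p = 1.02e-07). RILP, which links RAB7 to dynein, rose by 2.35 ± 0.15 (adjusted p = 6.83e-11). RAB3D of secretory granules fell by 3.28 ± 0.17 (log2 fold change -3.28, adjusted p = 3.84e-12), and BICD1, a dynein adaptor, by 1.297 ± 0.10 (log2 fold change -1.297, adjusted p = 1.36e-09).

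The exocyst, which tethers vesicles to the plasma membrane, had 1 of 9 genes up and 2 down in FR1 compared with hnCD16. EXOC2 rose by 1.57 ± 0.05 (SE, edgeR adjusted p = 8.93e-15), while EXOC6 fell by 1.56 ± 0.08 (log2 fold change -1.56, adjusted p = 8.68e-12) and EXOC6B was at least 87.3-fold lower. Of 9 other lysosomal membrane proteins, 2 rose and 2 fell. CD63, a tetraspanin of lytic granules, rose by 2.31 ± 0.06 (adjusted p = 2.98e-16), from 198 ± 8.53 TPM in hnCD16 to 951 ± 9.64 TPM in FR1 (SD, n = 3). SCARB2, a lysosomal receptor, rose by 2.29 ± 0.06 (adjusted p = 4.65e-16). LAPTM5, a lysosomal protein of blood cells, fell by 6.77 ± 0.10 (log2 fold change -6.77, adjusted p = 1.02e-19), and LAMP3 fell by 4.80 ± 0.20 (log2 fold change -4.80, adjusted p = 2.59e-13). The granule membrane genes LAMP1 and LAMP2 had smaller log2 fold changes than CD63, SCARB2, LAPTM5 or LAMP3.

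**Figure D5:**
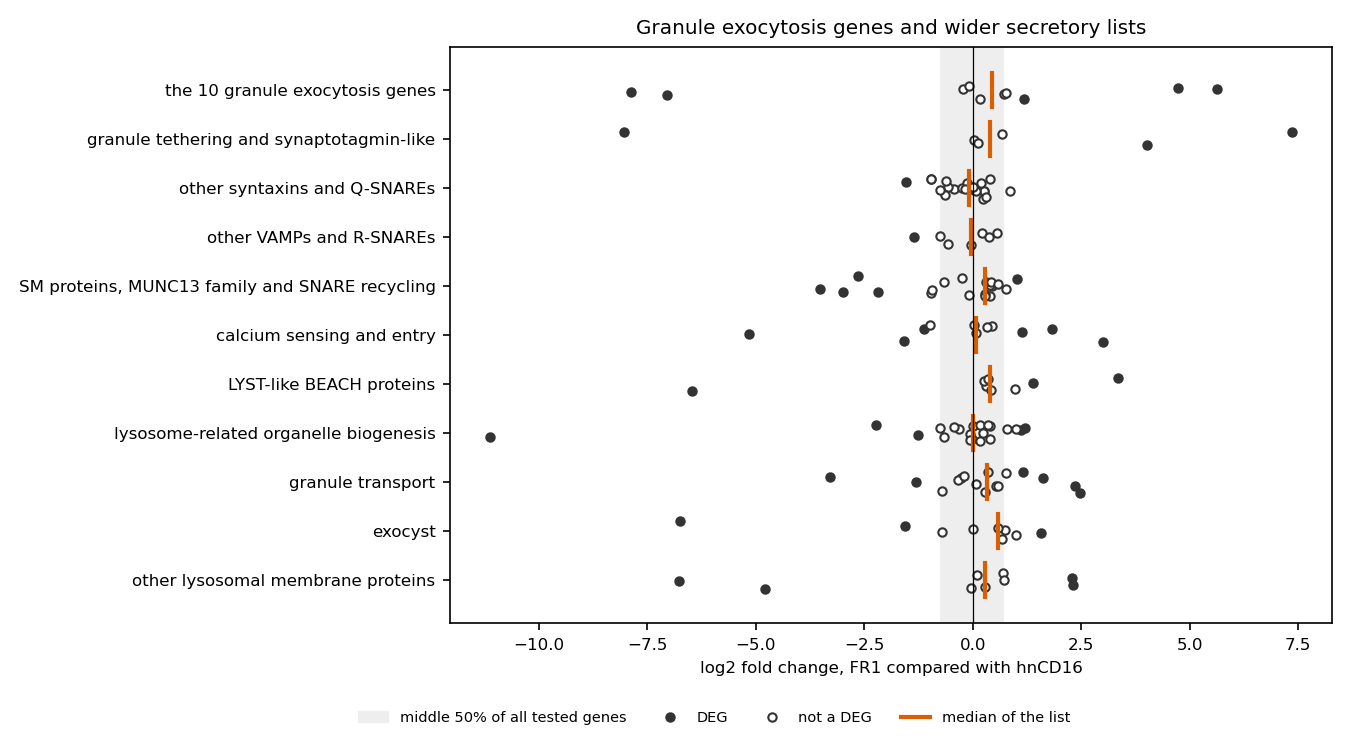
log2 fold change in FR1 compared with hnCD16 for the 10 granule exocytosis genes and the tested genes of 10 wider lists, with filled points for DEGs, a line for the median of each list and a grey band for the middle 50% of all tested genes. The medians of the lists stay between -0.08 and 0.58, while single genes reach -11.12 (RAB32, at 0 counts in FR1, so that the fitted value is no measure of size) and 7.36 (SYTL2).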

How the data were processed

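RNA of 12 libraries labelled YT (4 groups of 3) was depleted of ribosomal RNA per the labels, which also name oligo(dT) beads. Reads were cleaned by the authors with SOAPnuke, aligned with HISAT2 2.1.0 (GRCh38.p13) and quantified with RSEM 1.3.1, and the submitters' processing notes also name Bowtie2 2.3.4.3 and DESeq2 1.4.5. The expected counts were deposited as RSEM estimated them per gene and transcript, without normalization, and the deposited TPM values come from the same reads. Strand use in counting and the treatment of paralogs are not given in the sources used here. Another 24 value columns per table, holding FPKM and normalized counts per library, were not used.

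Samples were grouped by their labels. Expected counts were rounded and tested with edgeR 4.0.16 in R 4.3.3 (TMM, filterByExpr, quasi-likelihood, 1 fit of 4 groups, 8 residual degrees of freedom), with Benjamini-Hochberg adjustment over 13657 genes in each of 6 comparisons and a log2 fold change of 1 or more in size. The fitting step was tested on simulated data. CPM used TMM-scaled library sizes. The libraries held 17714566 to 18729019 counts. SEs come from the quasi-likelihood fit and SDs from the 3 libraries of a group, so both cover the spread between these libraries only. Floors cover counting error only. Replicate pairs differed by more than sampling noise, with a chi-square per gene of 2.06 to 12.3. The 10 genes and the wider and marker lists were chosen with earlier results of these data known. All 10 genes were named, and of each wider list up to 2 of the highest and 2 of the lowest log2 fold changes in FR1 compared with hnCD16 among DEGs that averaged 1 CPM or more. The values of 1 gene that this rule names are not reported here. For the 3 genes of widest range, the 3 tested genes of highest r were named. Transcripts were considered from a group mean of 0.5 TPM. Positions are from GENCODE 44 on GRCh38 and promoters from RefSeq. Alternatives were RLE and library-size scaling, DESeq2 1.42.0, limma 3.58.1 with a TPM pseudocount of 1 or 0.1, other filters, fits of 2 groups, the replicate block, no fold threshold and leaving out each library. Figures were drawn with matplotlib 3.10.9.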

Additional observations from a re-analysis of the deposited data

Results flagged for a closer look

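The levels of 6 of the 10 granule exocytosis genes differed between FR1 and FR2 libraries in the edgeR comparison of these 2 groups. This difference is the same whichever of CTRL and hnCD16 serves as the shared reference. The FR1 minus FR2 difference in log2 fold change was -0.24 for STX11 (edgeR adjusted p = 0.00495), -0.31 for STX7 (adjusted p = 0.00121) and -0.25 for LAMP1 (adjusted p = 0.00276). It was 0.18 for LYST (adjusted p = 0.0454), 0.16 for VAMP7 (adjusted p = 0.0108) and 0.28 for LAMP2 (adjusted p = 0.00127). They were 0.16 to 0.31 in size, in a comparison in which 36.2% of all tested genes passed the same adjusted p. Single outlying libraries were not tested, because each group has 3 libraries.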

How the results depend on the processing

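With at least 10 counts in every library required, 3 of the 10 genes were DEGs in FR1 compared with hnCD16, in FR1 compared with CTRL and in FR2 compared with CTRL, since that filter removes UNC13D and VAMP8. Without a fold threshold, 9 passed in each of these comparisons, 8 in hnCD16 compared with CTRL and 6 in FR1 compared with FR2. Of the 128 tested genes of the wider lists, 106 (FR1 and hnCD16), 100 (FR2 and hnCD16), 108 (FR1 and CTRL), 102 (FR2 and CTRL), 65 (hnCD16 and CTRL) and 54 (FR1 and FR2) then passed. In this order these were 82.8%, 78.1%, 84.4%, 79.7%, 50.8% and 42.2% of the 128. Of all tested genes 79.1%, 80.1%, 79.9%, 80.2%, 43% and 36.2% passed. Leaving out single libraries gave 0 to 1 wider DEGs in FR1 compared with FR2. In limma on log2(TPM + 1) and log2(TPM + 0.1), the log2 fold change of STX7 FR2 vs hnCD16 reversed to -0.042 and -0.044, and the log2 fold change of STX7 FR2 vs CTRL to -0.020 and -0.021. The log2 fold change of LAMP2 FR2 vs CTRL reversed to -0.19 in limma with either pseudocount, -0.13 with library size alone, -0.0033 without a filter and -0.012 with the 10-count filter, and without 1 library it ranged from -0.044 to 0.034. The log2 fold change of STX11 hnCD16 vs CTRL ranged from -0.29 to 0.021 without 1 library. The cause was not tested. Of 60 log2 fold changes under the alternatives, 867 values kept their direction and side of the threshold, 13 reversed and 6 lost the call. Those 6 were VAMP7 and LAMP1 in FR2 compared with hnCD16, at 0.93 to 0.995.

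Library size alone moved the median log2 fold change of all genes by more than 0.1, to -0.22 in FR1 compared with CTRL, -0.17 in FR2 compared with CTRL and -0.12 in hnCD16 compared with CTRL. Limma on log2(TPM + 0.1) moved it to -0.23, -0.24 and -0.14. In the last comparison the share of higher genes among DEGs was 40.3%, against 23.2% and 25% under these settings. On log2(TPM + 1), which understates low genes, the values in FR1 compared with hnCD16 were -4.50 for UNC13D, 2.67 for LYST and 3.62 for STX11. Small differences among the other genes also moved by over 1.5 times with the scaling, as for STX7 in hnCD16 compared with CTRL (0.16, and 0.022 in limma).

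Same-numbered replicates correlated in their deviations with a mean r of -0.03 to 0.25 over the 6 comparisons, so the numbers were not taken to pair the libraries. With the replicate number as a block, 5, 6, 5, 5, 0 and 0 of the 10 genes were DEGs, and no call changed. Counts of 4 to 14 in FR1 and FR2 limit what can be said of UNC13D and VAMP8 between these groups.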
